A study of Mus musculus with 6 samples.

Results

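The cyclin-dependent kinase (Cdk) inhibitors and the pocket proteins are 10 genes whose products hold cells in G1. They were chosen by gene name: every non-control probe that the array files assign to Cdkn1a, Cdkn1b, Cdkn1c, Cdkn2a, Cdkn2b, Cdkn2c, Cdkn2d, Rb1, Rbl1 or Rbl2. All 10 genes were on the array, with 16 of the 55681 probes and 34 of the 59305 non-control spots. RNA was taken from freshly sorted LSK cells (no lineage markers, but Sca-1 and c-Kit on the surface), a fraction that holds hematopoietic stem cells and multipotent progenitors, of NIKaly/aly and wild-type mice. Map3k14 encodes NIK, a kinase upstream of the alternative NF-kB pathway, and aly is a germline loss-of-function allele of it, so that every cell type of the animal carries it. The NIKaly/aly group has samples 2, 4 and 6 and the wild-type group samples 1, 3 and 5, each hybridised to a 1-colour array. Strain, age, sex, tissue, treatment of the mice and the number of animals behind a sample are not given in the sources used here. Nothing states that samples came from separate animals, so a p-value here measures sample-to-sample spread, part or all of which may be technical.

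Cdk inhibitors bind cyclin-Cdk complexes. The CIP/KIP proteins p21, p27 and p57 (Cdkn1a, Cdkn1b, Cdkn1c) act on a broad range of them, and the INK4 proteins (Cdkn2a to Cdkn2d) bind Cdk4 and Cdk6 alone. With those kinases held, the retinoblastoma protein and its relatives p107 and p130 (Rb1, Rbl1, Rbl2) stay unphosphorylated, bind E2F transcription factors and keep S-phase genes silent. In mouse hematopoietic stem cells p57 is known as a factor of quiescence, p18 (Cdkn2c) as a limit on self-renewal, and the silencing of Cdkn2a by Polycomb proteins as a condition for self-renewal.

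Of the 10 genes, 8 passed the filter on dim probes (well above background on 3 or more arrays) and were tested. All 8 were well above background on all 6 arrays, as were 78.9% of the genes that passed the same filter. None of the 8 differed between the genotypes beyond the spread between samples (limma, adjusted p = 0.99998 for each). With consecutive samples as a block in limma, 1 of the 8 (Rbl1) had an unadjusted p under 0.05, beside 7.35% of all genes. Rbl1 had the widest gap in means among the 8, 0.42 ± 0.28 log2 units higher in NIKaly/aly (SE, n = 3 per genotype), followed by Cdkn2c (0.29 ± 0.37) and Cdkn1c (0.25 ± 0.31). Cdkn1a, Cdkn1b, Cdkn2d, Rb1 and Rbl2 lay within 0.10 of 0. For Cdkn2a and Cdkn2b no array of either genotype gave a signal well above background.

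Several members are read by more than 1 probe. The 3 probes of Cdkn1a and the 2 of Rbl1 are listed against different transcripts, and whether each reads only its own was not tested. Target sequences are therefore shown first for Cdkn1a and for variant 2 of Rbl1. Each line gives the last 30 bases of a 60-base probe, 5′ to 3′, as the array files list them, with the position of those 30 bases on the mm9 build. No letters are capitalised.
Cdkn1a, NM_007669, plus strand, chr17:29237407-29237436: gctgatcctttctcagtgttgaataccgtg
Cdkn1a, ENSMUST00000122348, plus strand, chr17:29235329-29235358: tcttgtgtttcagccacaggcaccatgtcc
Cdkn1a, NM_001111099, plus strand, chr17:29228016-29228045: acgtcccactttgccagcagaataaaaggt
Rbl1, NM_001139516, minus strand, chr2:157000761-157000790: atcagaatatattgtatggaaaaatttttt

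Levels below are log2 units over the array's 75th percentile of signal, and they compare arrays for 1 probe, never 1 probe with another. The 75th percentile itself was 126, 201 and 50.8 in NIKaly/aly 2, 4 and 6 and 47.0, 225 and 80.2 in wild type 1, 3 and 5, and 33.1% to 45.6% of an array's spots were well above background. The scanning software's quality result was ExtractionEvaluate for wild type 1 and NIKaly/aly 6 and ExtractionInRange for the other arrays. All arrays were on 1 slide. NIKaly/aly 2 and wild type 1 stood apart from the other 4 arrays: the globin gene Hbb-b1 read 6.51 in NIKaly/aly 2 and 7.61 in wild type 1, and 2.47 to 3.18 on the others. Of 10 LSK markers, 9 were well above background on all 6 arrays, Kit (4.65 to 5.45) and Ly6a, which encodes Sca-1 (1.50 to 3.67), among them. So were 10 of 10 mature neutrophil markers, S100a9 (9.32 to 11.84) among them. The summed linear signal of the LSK markers was 361 to 372 in NIKaly/aly and 298 to 321 in wild type. Not every LSK marker shared that direction. Ly6a read 2.94, 2.44 and 1.50 in NIKaly/aly 2, 4 and 6 and 3.67, 2.79 and 2.45 in wild type 1, 3 and 5. Ly6a thus tended lower in NIKaly/aly with overlap, and Kit overlapped between the genotypes. The sum of 7 macrophage and monocyte markers was 18.4 to 21.8 in NIKaly/aly and 29.1 to 49.0 in wild type. Only 2 of these 7 were well above background on all 6 arrays, and Mrc1 was so on no array. A linear sum weights the brightest markers most, and the single markers of this sum are not given here. The part of the cells behind these markers in the members' values was not tested. Fewer cells of a type and less RNA per cell cannot be told apart in such bulk samples. Map3k14 differed by 0.31 ± 0.48 (SE; limma, Benjamini-Hochberg adjusted p = 0.99998), and since the allele is a point mutation its level does not check the labels.

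Among the CIP/KIP genes, Cdkn1a encodes p21, the inhibitor induced by p53. Its main probe, printed in 10 spots on each array, read 3.62, 3.08 and 3.63 in NIKaly/aly 2, 4 and 6 and 3.33, 3.13 and 3.91 in wild type 1, 3 and 5. The groups overlapped, with the lowest array (NIKaly/aly 4) and the highest (wild type 5) both outside the other group's range. The SD of the 10 spots within an array was 0.05 to 0.07. The range of 0.84 over the 6 arrays was larger than that, though some arrays, such as NIKaly/aly 2 and 6, lay closer together. The means were 3.44 ± 0.32 in NIKaly/aly and 3.46 ± 0.41 in wild type (SD, n = 3 each), a difference of -0.02 with a 95% interval of -0.75 to 0.72 (limma, adjusted p = 0.99998).

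Neither of the other 2 probes of Cdkn1a was well above background throughout. On 4 of 6 arrays the probe to ENSMUST00000122348 passed the background test. It read -2.88, -0.76 and -0.60 in NIKaly/aly 2, 4 and 6 and -3.68, -0.23 and 0.06 in wild type 1, 3 and 5, and the arrays that failed it were NIKaly/aly 2 and wild type 1, which also had the highest summed signal of 8 erythroblast markers (181 in NIKaly/aly 2 and 389 in wild type 1, against 7.75 to 18.6 on the other 4). The fitted difference of -0.13 ± 1.05 (SE; limma over all probes, adjusted p = 0.99998) rests in part on those 2 values below background, which are bounds and not levels. The probe to NM_001111099, the second annotated variant, whose target lies upstream of the others, gave no signal well above background on the 6 arrays. The values of Cdkn1a given here are those of the main probe.

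**Figure D1:**
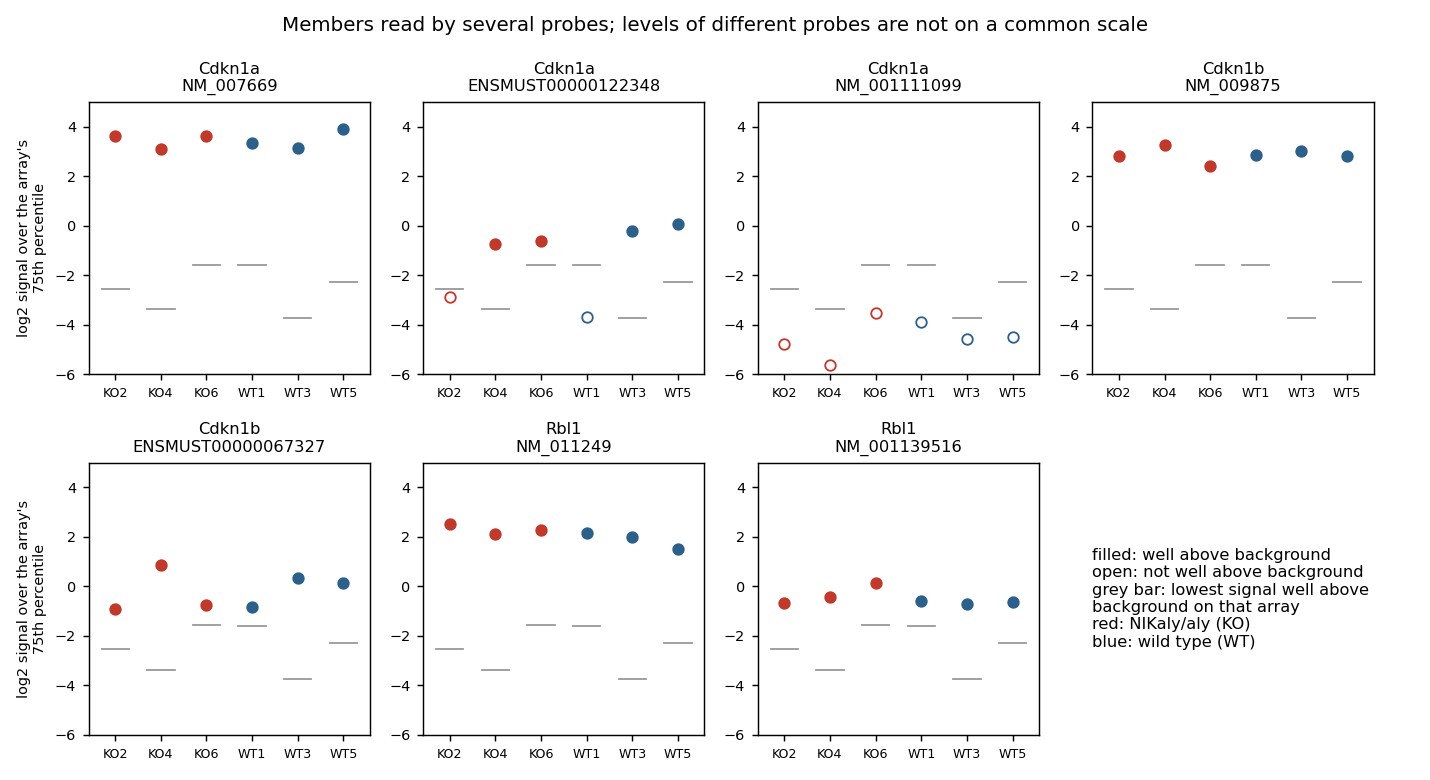
Log2 signal over the array's 75th percentile (y axis) for each probe of Cdkn1a, Cdkn1b and Rbl1 on the 6 arrays (x axis; NIKaly/aly in red, wild type in blue), filled where well above background and open where not, with a grey bar at the array's lowest signal well above background. The Cdkn1a probe to ENSMUST00000122348 is filled on 4 arrays and the one to NM_001111099 on none, while the main probe lay between 3.08 and 3.91 on all 6.

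Cdkn1b encodes p27, which accumulates in resting cells and is removed by the SCF-Skp2 ligase at the entry to S phase. Its brighter probe (NM_009875, chromosome 6, 134875424 to 134875483 on mm9) read 2.82, 3.24 and 2.40 in NIKaly/aly 2, 4 and 6 and 2.84, 2.995 and 2.82 in wild type 1, 3 and 5. The 3 wild-type arrays lay within the span of the NIKaly/aly arrays. The means were 2.82 ± 0.42 in NIKaly/aly and 2.89 ± 0.10 in wild type (SD, n = 3 each), and the difference was -0.06 (95% interval -0.74 to 0.61). The second probe (ENSMUST00000067327, chromosome 6, 134873606 to 134873665) was well above background on all arrays and varied more. It read -0.90, 0.87 and -0.75 in NIKaly/aly 2, 4 and 6 and -0.82, 0.34 and 0.13 in wild type 1, 3 and 5. Both probes had NIKaly/aly 4 as the highest array, and the difference of the second was -0.14 ± 0.54 (SE; limma, adjusted p = 0.99998).

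Cdkn1c encodes p57, an imprinted gene expressed from the maternal copy. Its single probe (chromosome 7, 150644753 to 150644812 on mm9, minus strand) read 0.95, 0.81 and 0.88 in NIKaly/aly 2, 4 and 6 and 1.16, 0.30 and 0.44 in wild type 1, 3 and 5. The NIKaly/aly arrays were close together, and wild type 1 lay above all of them while wild type 3 and 5 lay below. The means were 0.88 ± 0.07 in NIKaly/aly and 0.63 ± 0.46 in wild type (SD, n = 3 each). The difference was 0.25 (95% interval -0.46 to 0.96; limma, adjusted p = 0.99998). Leaving out wild type 1 gave 0.51, leaving out wild type 3 gave 0.08 and leaving out wild type 5 gave 0.15.

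**Figure D2:**
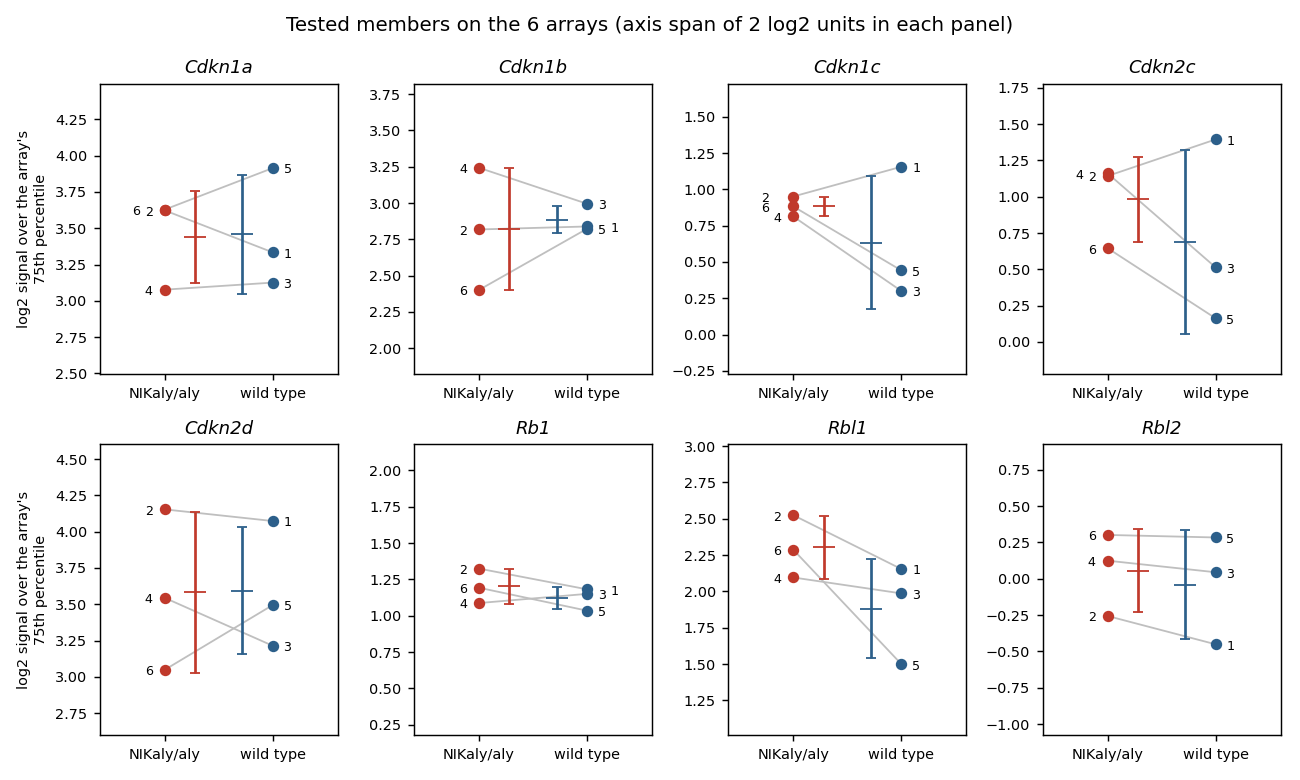
Log2 signal over the array's 75th percentile (y axis, 2 log2 units in each panel) of the 8 members tested, with NIKaly/aly samples in red and wild-type samples in blue, numbered as in the labels. Points are single arrays, bars are the mean and SD of 3 arrays, and grey lines join samples with consecutive numbers. The groups overlap in every panel, and the 6 values of Rb1 span 0.29.

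Among the INK4 genes, Cdkn2a encodes p16 and, from another first exon and reading frame, the p53 activator Arf, and its neighbour Cdkn2b encodes p15. Each has 2 probes, and those of Cdkn2a are listed against the same target transcript, so they do not separate p16 from Arf. None of these 4 probes was well above background on any of the 6 arrays. Their signals, together with that of the undetected Cdkn1a probe, ran from 3.16 to 9.45, and the lowest signal called well above background was 15.4 to 21.4 depending on the array. The Cdkn2a probe at chromosome 4, 88920405 to 88920464 on mm9, had signals of 4.90, 4.55 and 3.94 in NIKaly/aly 2, 4 and 6 and 7.71, 8.95 and 3.85 in wild type 1, 3 and 5. The other, at 88920543 to 88920602, had 5.48, 5.04 and 4.14 in NIKaly/aly 2, 4 and 6 and 3.87, 4.32 and 4.22 in wild type 1, 3 and 5. No fold is given, since both genotypes were below background.

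Cdkn2c encodes p18, which binds Cdk6 with preference. Its probe (chromosome 4, 109333508 to 109333567 on mm9, minus strand) read 1.14, 1.16 and 0.65 in NIKaly/aly 2, 4 and 6 and 1.39, 0.51 and 0.16 in wild type 1, 3 and 5. Wild type 1 was the highest array and wild type 3 and 5 the lowest. The means were 0.98 ± 0.29 in NIKaly/aly and 0.69 ± 0.63 in wild type (SD, n = 3 each), and the difference of 0.29 had a 95% interval of -0.56 to 1.15 (limma, adjusted p = 0.99998). Leaving out wild type 1 gave 0.65 and leaving out wild type 5 gave 0.03. NIKaly/aly 6 left out gave 0.46.

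Cdkn2d encodes p19Ink4d, an inhibitor of Cdk4 and Cdk6 that is a different protein from Arf. It read 4.15, 3.54 and 3.05 in NIKaly/aly 2, 4 and 6 and 4.07, 3.21 and 3.50 in wild type 1, 3 and 5 (chromosome 9, 21092934 to 21092993 on mm9, minus strand). NIKaly/aly 2 and wild type 1 were the highest arrays, 1 in each genotype. These are the arrays with the most erythroblast marker signal, although Epb4.2, an erythroblast marker, was above background on none. The part of such cells in the Cdkn2d, Rbl2 and Cdkn1a values was not tested. The means were 3.58 ± 0.55 in NIKaly/aly and 3.59 ± 0.44 in wild type (SD, n = 3 each), and the difference was -0.01 (95% interval -0.87 to 0.85; limma, adjusted p = 0.99998).

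Rb1 encodes the retinoblastoma protein. Its probe (chromosome 14, 73595408 to 73595467 on mm9, minus strand) was also printed in 10 spots per array. It read 1.32, 1.09 and 1.19 in NIKaly/aly 2, 4 and 6 and 1.18, 1.15 and 1.03 in wild type 1, 3 and 5, which is nearly level. The range over the 6 arrays was 0.29, and 0.899% of the tested genes had a smaller one, with a median range of 1.21 over all of them. A mean of 10 spots has less spotting error than the single spot behind most genes, so the range was also set beside that of the 211 tested genes read from 10 spots. Of these, 3 had a smaller range, and the median of the 211 was 1.02. The SD of the 10 spots within an array was 0.06 to 0.12. The means were 1.20 ± 0.12 in NIKaly/aly and 1.12 ± 0.08 in wild type (SD, n = 3 each), a difference of 0.08 with a 95% interval of -0.48 to 0.64, which is wider than the values themselves because limma draws each gene's variance towards that of genes of like brightness (adjusted p = 0.99998).

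Rbl1 encodes p107, which binds the repressive E2F factors and is itself transcribed as an E2F target in cycling cells. The probe to NM_011249 read 2.53, 2.10 and 2.29 in NIKaly/aly 2, 4 and 6 and 2.15, 1.99 and 1.50 in wild type 1, 3 and 5. NIKaly/aly 2 and 6 were the highest arrays and wild type 3 and 5 the lowest, with NIKaly/aly 4 below wild type 1, so the groups overlapped. The means were 2.30 ± 0.21 in NIKaly/aly and 1.88 ± 0.34 in wild type (SD, n = 3 each). The difference of 0.42 is 1.34-fold, with a 95% interval of -0.230 to 1.076 (limma, unadjusted p = 0.174, adjusted p = 0.99998). Leaving out wild type 5 gave 0.23, and leaving out NIKaly/aly 2 gave 0.31. Of all tested genes, 14.6% had a larger difference in either direction.

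The Rbl1 probe to NM_001139516, annotated as variant 2, gave the same sign with values close to each other on 5 arrays. It read -0.69, -0.44 and 0.15 in NIKaly/aly 2, 4 and 6 and -0.60, -0.71 and -0.61 in wild type 1, 3 and 5. NIKaly/aly 6 was the highest array, and NIKaly/aly 2 lay within the range of the wild-type arrays. The difference was 0.31 ± 0.33 (SE; limma over all probes, adjusted p = 0.99998). Leaving out NIKaly/aly 6 gave 0.07, and leaving out NIKaly/aly 2 gave 0.50.

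Rbl2 encodes p130, the pocket protein that predominates in resting cells and anchors the DREAM repressor complex. It read -0.26, 0.12 and 0.30 in NIKaly/aly 2, 4 and 6 and -0.45, 0.04 and 0.28 in wild type 1, 3 and 5 (chromosome 8, 93647120 to 93647179 on mm9). NIKaly/aly 2 and wild type 1 were the lowest arrays, the reverse of Cdkn2d. The means were 0.06 ± 0.29 in NIKaly/aly and -0.04 ± 0.38 in wild type (SD, n = 3 each), and the difference was 0.10 (95% interval -0.65 to 0.85; limma, adjusted p = 0.99998).

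Counted over the family, 0 of the 8 tested members passed an adjusted p of 0.05 in limma, beside 0.0% of all 15684 tested genes, and 0 of 8 had an unadjusted p under 0.05, beside 1.33%. Of the 11 tested probes 0 passed either threshold, beside 0.0% adjusted and 1.28% unadjusted of all probes. The genotypes overlapped in all 8, and 4.57% of all genes did not overlap (2.68% higher and 1.89% lower in NIKaly/aly). The difference was above 0 in 5 members, beside 48.5% of all genes, and below 0 in 3. The median difference was 0.09 over the 8 members and -0.01 over all tested genes. The 95% interval lay within 1 log2 unit of 0 for 6 of the 8, Rbl1 and Cdkn2c being the exceptions, beside 37.2% of all genes. For all 8 the interval included 0. The widths depend on the scaling: with median scaling and with the authors' series table the SE of each member was 0.54 to 0.57, and the interval lay within 1 log2 unit for 0 of the 8 and for 0.0% of all genes. Without NIKaly/aly 4 it did so for 1 of the 8, beside 13.6% of all genes. Without any other single array it did so for 3 or 4, beside 13.7% to 29.6%. Other settings gave narrower intervals: 7 of the 8 with quantile normalization, beside 50.3%, and 8 with consecutive samples as a block, beside 78.0%.

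**Figure D3:**
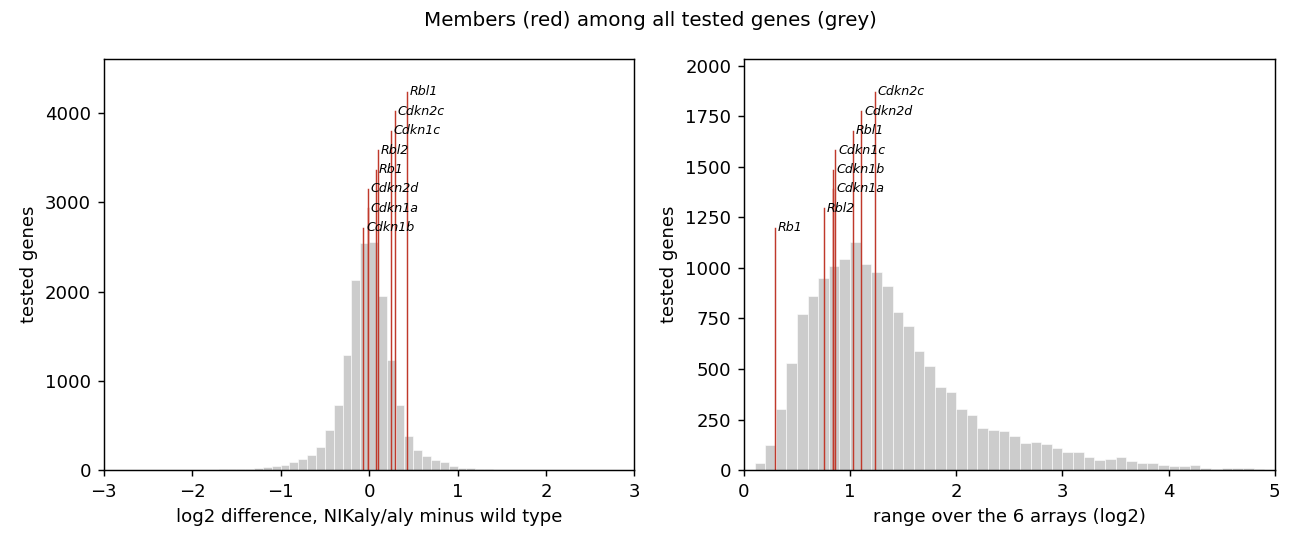
Histograms of all 15684 tested genes (grey; y axis, number of genes) by log2 difference, NIKaly/aly minus wild type, on the left and by range over the 6 arrays in log2 units on the right, with the 8 members as red lines. Not drawn are 13 genes beyond 3 on the left and 62 beyond 5 on the right; Rbl1 lies at 0.42 on the left and Rb1 at 0.29 on the right.

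Samples with consecutive numbers, 1 of each genotype, resembled each other across genes (r = 0.975 to 0.989) more than samples of 1 genotype did (0.937 to 0.975), a pattern known from earlier results on these arrays that the labels do not explain. Rbl1 differed by 0.37 between NIKaly/aly 2 and wild type 1, by 0.11 between NIKaly/aly 4 and wild type 3 and by 0.79 between NIKaly/aly 6 and wild type 5. Rbl2 was also above 0 in all 3 such pairs (0.20, 0.08 and 0.02). These 2 of 8 stand beside 13.8% of all genes that were higher in all 3 pairs. Cdkn1c (-0.21, 0.51 and 0.44) and Cdkn2c (-0.25, 0.65 and 0.48) were lower in NIKaly/aly in the first pair and higher in the other 2. Cdkn1a (0.29, -0.05 and -0.29), Cdkn1b (-0.02, 0.25 and -0.42) and Cdkn2d (0.08, 0.33 and -0.45) changed sign between pairs, and Rb1 had 0.14, -0.06 and 0.16. With the pairs as a block, the interval of Rbl1 was 0.02 to 0.82 (limma, unadjusted p = 0.041, adjusted p = 0.657), and it was the 1 member of 8 under an unadjusted 0.05, beside 7.35% of all genes. No member passed after adjustment with the block, and 0.0128% of all genes did. With array column as a random block Rbl1 alone of the 8 passed, beside 8.79% of all genes. Columns 1 and 3 held wild-type arrays only and columns 2 and 4 NIKaly/aly arrays only, so that fit cannot separate column from genotype.

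**Figure D4:**
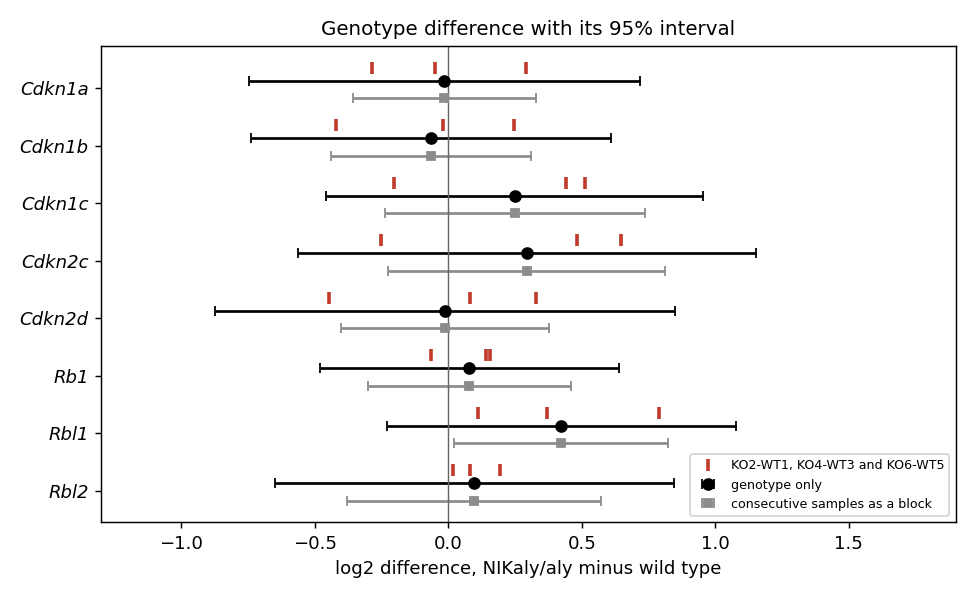
Log2 difference, NIKaly/aly minus wild type (x axis), for the 8 members (y axis), with the 95% interval from the fit on genotype alone in black and with consecutive samples as a block in grey. Red ticks are the 3 differences between consecutive samples; all 3 lie above 0 for Rbl1 and Rbl2.

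The members' promoters were searched for the E2F consensus in its 4 forms TTTCCCGC, TTTCGCGC, TTTGCCGC and TTTGGCGC on both strands. Rbl1 and Cdkn2a, both known as E2F targets, are printed because they had a match and not for their expression values. The 250 bases before each annotated start were read from RefSeq on GRCm38.p6, a later build than that of the probes. The table held 8 members with 11 starts, of which 2 had a match, beside 1.86% of all 32851 promoters; Cdkn1c and Rb1 are not among the 8. The match is in capitals, beginning at position -18 from the start in Rbl1 and at -99 from the upstream start of Cdkn2a, the one used for Arf. A match is a run of letters and not a measured binding site.
Rbl1, minus strand, chr2:157204535-157204784: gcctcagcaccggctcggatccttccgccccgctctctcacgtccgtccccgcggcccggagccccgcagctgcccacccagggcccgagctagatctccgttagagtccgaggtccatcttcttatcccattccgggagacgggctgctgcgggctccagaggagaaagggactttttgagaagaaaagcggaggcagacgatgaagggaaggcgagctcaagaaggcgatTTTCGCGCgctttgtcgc
Cdkn2a, minus strand, chr4:89294620-89294869: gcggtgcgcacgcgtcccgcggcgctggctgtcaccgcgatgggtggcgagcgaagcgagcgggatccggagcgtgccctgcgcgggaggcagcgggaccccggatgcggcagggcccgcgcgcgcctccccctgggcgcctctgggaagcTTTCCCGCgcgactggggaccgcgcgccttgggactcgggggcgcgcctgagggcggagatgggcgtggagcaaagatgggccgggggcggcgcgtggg

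Genes that the inhibitors and pocket proteins act on, that act on them or that share their pathways were counted in 7 lists of 101 genes. Of these, 90 were tested. None of the 90 passed in limma, and 0 had an unadjusted p under 0.05; 52 read higher and 38 lower in NIKaly/aly (median 0.05). In 2 the genotypes did not overlap, both higher in NIKaly/aly, beside 2.68% of all genes in that direction. The median of 6 of the 7 lists changed sign when 1 array was left out, so the lists' medians have no settled direction. That of the Ink4-Arf repressors did not change sign. The median of all tested genes moved as well, from -0.11 without NIKaly/aly 2 to 0.10 without wild type 1. The sign changes are therefore not particular to the lists. G1 cyclins and kinases, a list that includes targets of the inhibitors, were higher in 5 and lower in 7 (median -0.09). The catalytic subunit gene Cdk2 was at 0.26 ± 0.28 (SE) and the D-type cyclin gene Ccnd3 at -0.36 ± 0.49. With 1 array left out the median of this list ran from -0.22 (NIKaly/aly 2) to 0.14 (NIKaly/aly 6), and Ccnd3 was 0.025 when wild type 1 was left out. E2F and DP factors, a list that includes partners of the pocket proteins, were higher in 4 and lower in 4 (median 0.03). Tfdp2, a dimerisation partner of E2F, differed by 0.81 ± 0.45 and E2f2, an activator, by -0.48 ± 0.44; wild type 1 was the lowest array for Tfdp2 and the highest for E2f2. Leaving out wild type 1 gave 0.34 for Tfdp2 and -0.07 for E2f2.

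DREAM and MuvB partners, not all of which bind p107 or p130, were higher in 4 and lower in 4 (median 0.03). The MuvB subunit gene Lin54 read 1.34, 0.92 and 1.28 in NIKaly/aly 2, 4 and 6 and 0.85, 0.79 and 0.89 in wild type 1, 3 and 5, without overlap and with a difference of 0.34 ± 0.26 (SE; limma, adjusted p = 0.99998). The MuvB subunit gene Lin9 differed by 0.73 ± 0.48 and was well above background on 5 arrays, with its lowest value in wild type 1. Leaving out wild type 1 gave 0.22 for Lin9. S-phase genes that E2F drives were higher in 14 and lower in 9 (median 0.09). Orc1, a subunit of the origin recognition complex, was the other gene without overlap (0.47 ± 0.40) and was well above background on 3 of 6 arrays. The median of this list turned to -0.26 when NIKaly/aly 2 was left out, to -0.03 when wild type 3 was and to -0.08 when wild type 5 was. Leaving out wild type 1 gave 0.33, NIKaly/aly 4 gave 0.25 and NIKaly/aly 6 gave 0.27. The median of all genes was -0.11, -0.04 and -0.06 without NIKaly/aly 2, wild type 3 and wild type 5. It was 0.10, 0.04 and 0.07 without wild type 1, NIKaly/aly 4 and NIKaly/aly 6.

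Genes for the turnover of inhibitor proteins, with the ligases that mark p27 and p21 for degradation, were higher in 7 and lower in 5 (median 0.03, and -0.21 to 0.17 with 1 array left out). Dtl, the adaptor that takes p21 to its ligase, differed by 0.26 ± 0.26 and Cul4a, the scaffold of that ligase, by 0.17 ± 0.27. Of p53 and its targets, other than Cdkn1a, 10 were higher and 8 lower (median 0.02). Phlda3, an inhibitor of Akt signalling, had the widest difference of the 90 genes, -1.09 ± 0.50 (limma, adjusted p = 0.99998), with 1.30, 0.10 and -0.70 in NIKaly/aly 2, 4 and 6 and 1.69, 0.86 and 1.43 in wild type 1, 3 and 5. The death receptor gene Tnfrsf10b differed by 0.62 ± 0.34. Repressors of the Ink4-Arf locus, mostly Polycomb subunits, were higher in 8 of 10 (median 0.25, beside -0.01 over all genes), Bmi1 by 0.36 ± 0.28 and Rnf2 by 0.27 ± 0.25. The median of these 10 was 0.05 without samples 1 and 2 and 0.05 with array weights, and 0.15 to 0.25 without any 1 array.

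The pattern of each member over the 6 arrays was set against the 10950 tested genes with a current symbol, by the root mean square difference between profiles centred on their means. Over so few arrays many genes come close, and all share array, scaling and genotype, so these are descriptions. Nearest to Rbl1 were Serpinb6a (0.07) and Slc24a5 (0.07), and nearest to Rbl2 were Nrip1 (0.04) and Zswim6 (0.06). Zfp212 (0.03) and Htt (0.04) lay nearest to Rb1, whose own deviation about its mean was 0.09. Hsp90b1 (0.08) and Dhx40 (0.10) followed Cdkn1a, Cbx5 (0.06) and Midn (0.07) followed Cdkn1b, and Tdg (0.08) and Pi4kb (0.09) followed Cdkn1c. Xylb (0.11) and Tmem141 (0.12) were nearest to Cdkn2c, and Gm6578 (0.07) and Fcgrt (0.08) to Cdkn2d.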

How the data were processed

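RNA of 6 LSK samples was amplified and labelled with Cy3, per the labels' protocols. Per the file headers, the authors scanned spots with Feature Extraction 10.7.3.1, whose deposited intensity is a background-subtracted processed signal. In the authors' deposited series table each value is the ratio of that signal to the array's median, which holds for every single-spot probe on all 6 arrays to within 0.1%.

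Levels are log2 of the processed signal minus the array's 75th percentile. Control and outlier-flagged spots were left out, spots of 1 probe averaged, and a probe entered the test when 3 or more arrays had it well above background (21220 probes). The brightest probe stood for a gene (15684 genes). Genotype was tested with limma 3.58.1 in R 4.3.3, with an intensity trend and Benjamini-Hochberg adjustment over all genes at 0.05, two-sided, and tested on simulated data. Named genes were all members, Map3k14, the 2 of smallest unadjusted p per list and the 2 nearest profiles per member. A few items under these rules are not reported here. The members, lists and block were chosen with earlier results of these data known. Coordinates are those of the files (mm9), and no mm9 annotation of exons was used here. Promoters came from RefSeq (GRCm38.p6). Alternatives covered scaling, background, filters, array weights, blocks and left-out samples. Array number limits precision.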

Additional observations from a re-analysis of the deposited data

How the results depend on the processing

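Genes past the threshold in limma numbered 0 and became 10 with median scaling, 10 with the authors' series table, which repeats it, 1 with normexp background correction, 2 with no filter on dim probes, 5 with array weights, 2 with the block of consecutive samples and 1378 (8.79%) with array column as a random block; leaving out 1 sample gave 0 to 1. That random block had an estimated correlation of -0.88, and each of its columns held 1 genotype only, so it cannot separate column from genotype. It alone called a member, Rbl1 (0.55, adjusted p = 0.022; 0.022 to 0.999999 over its alternatives), so the calls were 1 of 8 members, 1 of the 11 probes and 8 of the list genes there, and 0 under every other alternative run. Of 168 values of the 8 members under alternatives, 143 kept their direction and side of the threshold and 24 changed direction, none of these a called value. With array weights Cdkn2c (0.64) and Cdkn1c (0.44) had intervals above 0 before adjustment, and neither passed after it.

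Cdkn1a read 0.0837 with median scaling, 0.0835 with the series table, 0.047 with normexp and 0.12 within slide row 1 (samples 1 to 4). Cdkn1b read 0.0341 with median scaling and 0.0341 with the series table, 0.0056 with normexp, 0.19 with array weights and 0.11 within row 1. Cdkn2d read 0.0868 with median scaling and 0.0868 with the series table, 0.0097 with quantile normalization, 0.0677 with normexp, 0.16 with array weights and 0.21 within row 1. Rb1 read -0.0063 and Cul4a -0.10 with array weights. The second Cdkn1b probe read 0.34 with array weights and 0.22 within row 1, and the Cdkn1a probe to ENSMUST00000122348 read 0.24 with quantile normalization, 0.13 within row 1 and 0.0333 with the random block. Median scaling adds the same amount to the difference of every gene, and it moved the median of all genes from -0.01 to 0.09. The cause of the other changes of direction was not tested. Leaving out 1 sample gave -0.18 to 0.21 for Cdkn1a, -0.28 to 0.14 for Cdkn1b, -0.30 to 0.25 for Cdkn2d, -0.11 to 0.26 for Rbl2, -0.78 to 0.0249 for Ccnd3, -0.21 to 0.69 for Map3k14, -0.71 to 0.18 for the second Cdkn1b probe and -1.33 to 0.60 for that Cdkn1a probe. The labels give the genotypes no shared sample number, so the block of consecutive samples rests on neighbouring numbers and not on a pairing in the labels, and was chosen with earlier results of these data known. The lowest level called well above background was highest in NIKaly/aly 6 (-1.58) and wild type 1 (-1.61), which limits dim probes there.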
